A study of Danio rerio with 12 samples.

Results

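The transcriptome of control zebrafish embryos at the tailbud stage was described from 3 libraries of total RNA. They are the libraries labelled as control morpholino and DMSO at 10 hours after fertilisation, 3 of the 12 of the series, and they were chosen by these labels alone. The embryos were of the wild-type TU strain. Each had received 1 ng of a standard control morpholino, an antisense oligo without an intended target, at the 1-2 cell stage, and was kept in DMSO, the solvent of the drug used elsewhere in the study, from 5.3 to 10 hours. The other 9 libraries of the series carried a tif1g morpholino, leflunomide or both and are not described here. Each sample pooled 109 snap-frozen whole embryos, so a value is an average over all tissues and over these embryos. The embryos were injected and kept in solvent, and an uninjected group was not analysed here. The labels do not tell whether the replicate numbers mark separate clutches, so the spread may be partly technical.

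At the tailbud stage gastrulation ends: the blastoderm has closed over the yolk cell, and the germ layers lie along a clear head-to-tail axis. The notochord and neural plate are forming, the paraxial mesoderm is about to be cut into somites, and new tissue is added from the tailbud. An outer enveloping layer covers the embryo, and the yolk syncytial layer under it mobilises the yolk lipids. Muscle contraction, circulating blood, photoreceptors and most differentiated organs come later.

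Counts for 32520 Ensembl genes summed to 32088082, 29845686 and 30249677 in replicates 1, 2 and 3. Levels are given as CPM, a gene's counts as a share of the library total scaled to one common total, in the order of replicates 1, 2 and 3, and values after ± are standard deviations over the 3 libraries (SD, n = 3). A long RNA gives more reads than a short one at the same number of molecules, and no transcript lengths were used, so a rank is a rank of reads, not of molecules. The RNA came from whole embryos, so fewer cells of a type and less RNA per cell cannot be told apart. Names shared by several genes are given with the Ensembl identifier. No source states which strand setting the counting used, so overlapping genes may carry each other's reads, and paralogues may share them.

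Many genes of the table were read in the control embryos. At least 1 CPM in each library was reached by 15656 genes, 48.1% of the table, and 24308 genes had a count in each library. Of the table, 4205 genes had no count in any of the 3 libraries, and at this depth a count of 3 stood for 0.0935 to 0.101 CPM. The genes at 1 CPM or more had a median level of 16.3 CPM, 2008 of them reached 100 CPM in each library, and 84 reached 1000 CPM.

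Reads were spread over many genes, with a steep top. The highest gene took 1.27 ± 0.0627% of the counts, the 10 highest took 6.57 ± 0.253%, the 100 highest 21.0 ± 0.337% and the 1000 highest 54.6 ± 0.592%. By rank 5000 the genes held 87.6 ± 0.205% of all counts. The plot of level by rank shows the same curve in the 3 libraries.

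**Figure D1:**
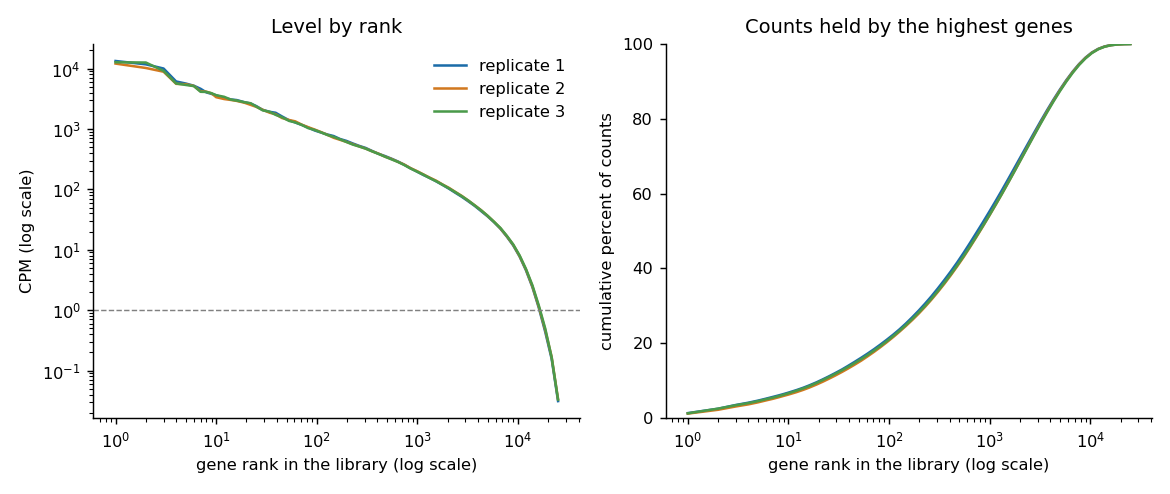
CPM against gene rank (left, both axes on log scales, dashed line at 1 CPM) and the cumulative percent of counts against gene rank (right, rank on a log scale), 1 line per library of control embryos in DMSO. The 3 lines lie on each other, with 54.6% of the counts in the 1000 highest genes.

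Translation, RNA handling and the outer cell layer led the list. The highest gene was eef1a1l1, a translation elongation factor 1 alpha that brings aminoacyl-tRNA to the ribosome, at 13338, 12084 and 12701 CPM. Next came 2 noncoding RNAs: rn7sl1, the RNA of the signal recognition particle, at 11734, 10213 and 12578 CPM, and rn7sk, which holds the elongation kinase P-TEFb inactive, at 10009, 8860.4 and 9143 CPM. Rank 4 went to krt4, a keratin of the outer layer, at 6109, 5582 and 5654 CPM. The first 4 ranks were the same in each library.

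Behind them stood hspa8 (ENSDARG00000068992), the constitutive Hsp70 chaperone, at 5641, 5147 and 5347 CPM, and hmga1a, a chromatin protein that binds AT-rich DNA, at 5197, 5497 and 5121 CPM. The elongation factor eef2b had 4620.3, 4201 and 4121 CPM. RNA-binding proteins were frequent at the top: khdrbs1a had 4086 ± 53.9 CPM, the cold-inducible cirbpb 3645 ± 225, the nucleolar ncl 2757 ± 86.02 and igf2bp1, an mRNA-binding protein, 2419 ± 22.6 CPM. The scaffold protein gene akap12b had 3079 ± 64.4 CPM.

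The remaining ranks of the first 25 named genes held cytoskeleton, yolk lipoprotein and noncoding RNAs. Actins were represented by actb2 at 3053 ± 29.8 CPM and actb1 at 2596 ± 92.8 CPM, and keratins also by krt18a.1 at 2994 ± 68.7 CPM and krt8 at 2763 ± 87.3 CPM. The lipoproteins apobb.1 and apoeb reached 3688 ± 293 and 2323 ± 46.3 CPM. The nuclear long noncoding RNA malat1 had 2690.2, 2912 and 3405 CPM, the chaperone hsp90ab1 3196, 2715 and 2888 CPM, and mt-co1, a subunit of cytochrome c oxidase and the only mitochondrial RNA among them, 2863, 2571 and 2976 CPM. The other 4 of the 25 were copies named metazoa_srp. Among genes without a name, ENSDARG00000080337 was highest at 3263, 3266 and 2935 CPM, rank 12.

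Small structural RNAs took a visible share of these rRNA-depleted libraries. The 81 genes named for the signal recognition particle RNA, which targets secreted proteins to the endoplasmic reticulum, summed to 47893, 42507 and 48459.6 CPM, or 4.63% of all counts. They are named as copies of 1 RNA, so the split of reads between them is uncertain and their sum is described. The RNA components of RNase P and RNase MRP, which process tRNA and rRNA precursors, summed to 2869 ± 79.5 CPM in 4 genes. Spliceosomal U RNAs summed to 1064 ± 25.5 CPM with 37 of 535 genes (6.92%) at 1 CPM or more. Small nucleolar and Cajal body RNAs summed to 824 ± 31.3 CPM with 40 of 79 (50.6%), near the 48.1% of all genes. Genes of 5S and 5.8S rRNA summed to only 89.5 ± 6.48 CPM over 1953 genes, of which 1197 had no count in any library. Among the U RNA genes 343 had none. Both lists hold many copies, so the split of reads between them is uncertain too. Whether these sums reflect the levels of the RNAs or the assignment of reads was not tested. Precursor genes of microRNAs were close to the limit of detection: 5 of 238 reached 1 CPM, and they summed to 32.6 ± 0.762 CPM.

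The protein synthesis machinery was the largest coding class examined. Of 85 genes of cytosolic ribosomal proteins, 82 reached 1 CPM in each library, with a median of 382 CPM against 1.08 CPM over all genes of the table. Their sum was 39792, 34637 and 36523 CPM, which is 3.70% of the counts. The most read was rplp0, the stalk protein of the large subunit, at 1575 ± 121 CPM, followed by rps2 at 1332 ± 81.6, rpl4 at 1278 ± 102 and rpl3 at 1259 ± 79.5 CPM. Translation factors summed to 29214, 27257 and 27539 CPM with 32 of 37 genes at 1 CPM, and aminoacyl-tRNA synthetases, which charge tRNAs, to 2831 ± 137 CPM with 35 of 36.

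Splicing and chromatin genes summed to levels close to those of translation factors. Of the list of splicing and RNA-binding genes 51 of 52 reached 1 CPM, and the list summed to 24729, 26173 and 25249 CPM. Its core included prpf8, the central protein of the spliceosome, at 1922, 1857 and 1752 CPM. The list of pluripotency and chromatin genes summed to 30385 ± 759 CPM with 68 of 70 genes at 1 CPM. Beyond hmga1a and ncl it was led by nucks1 at 2005 ± 39.3 CPM, by the histone chaperones set (ENSDARG00000031495) at 1369 ± 14.6 and anp32e at 1320.3 ± 158 CPM, and by the stem cell factor sall4 at 1204, 1363 and 1286 CPM. The remodelling ATPase smarca4 (ENSDARG00000077226) had 1117, 1158 and 1106 CPM.

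The genes of dividing cells were broadly present. Of the cell cycle and replication list 47 of 48 genes reached 1 CPM, with a median of 111 CPM and a sum of 8609.8, 8204 and 8574 CPM. The replication clamp pcna had 829.5, 749.9 and 776 CPM, the helicase subunit mcm5 543, 489 and 537 CPM and the topoisomerase top2a 534, 476 and 532 CPM. The G1 cyclin ccnd1 had 476, 553 and 512 CPM, and the mitotic cyclins ccnb1 and ccna2 had 268 ± 7.93 and 285 ± 6.31 CPM. Inhibitors of cyclin-dependent kinases were lower in reads: the highest, cdkn1ca, had 64.5 ± 1.67 CPM, and cdkn1a, a gene induced by DNA damage, had 8.73 ± 1.93 CPM. Of the 35 histone genes 34 reached 1 CPM, and the list summed to 7329.7, 6614 and 6672 CPM. The replacement histone gene h3f3a had 824, 911 and 879 CPM and the variant h2ax 484, 439.6 and 446 CPM.

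Each list of energy metabolism genes took fewer reads than the lists of ribosomal proteins, translation factors, splicing genes or chromatin genes. The 13 mRNAs of the mitochondrial genome summed to 8226, 7631 and 8412 CPM, or 0.809 ± 0.0408% of the counts, and mt-co1 gave most of any. Behind it came mt-co3 at 979.7 ± 93.04 CPM and mt-nd5 at 966 ± 29.3 CPM, with mt-atp8 last at 34.4 ± 1.78 CPM. Nuclear genes of the respiratory chain reached 1 CPM in 97 of 112, and the list summed to 4854, 4364 and 4426 CPM, led by atp5f1b, the beta subunit of ATP synthase, at 527 ± 59.4 CPM. Enzymes of the TCA cycle reached 1 CPM in 22 of 23 with a median of 51.4 CPM. Enzymes of glycolysis did so in 15 of 28 (53.6%), near the 48.1% of all genes, with a median of 2.06 CPM against 1.08 CPM over all genes. Of the glycolysis sum of 916, 863 and 861 CPM, aldoa (ENSDARG00000011665) alone gave 457, 427 and 404 CPM. The often used reference gene gapdh had only 91.2, 88.4 and 88.9 CPM.

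Protein folding and turnover genes were also broadly present. All 7 genes of the cytosolic chaperonin on the list, which folds actin and tubulin, reached 1 CPM and summed to 2722, 2463 and 2472 CPM. Their largest member in reads was cct3 at 552 ± 37.1 CPM. Heat shock and endoplasmic reticulum chaperones summed to 12350.3 ± 608 CPM, and hspa8 and hsp90ab1 gave most of it. Of the proteasome genes 50 of 59 reached 1 CPM, and the list summed to 4401 ± 219 CPM.

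**Figure D2:**
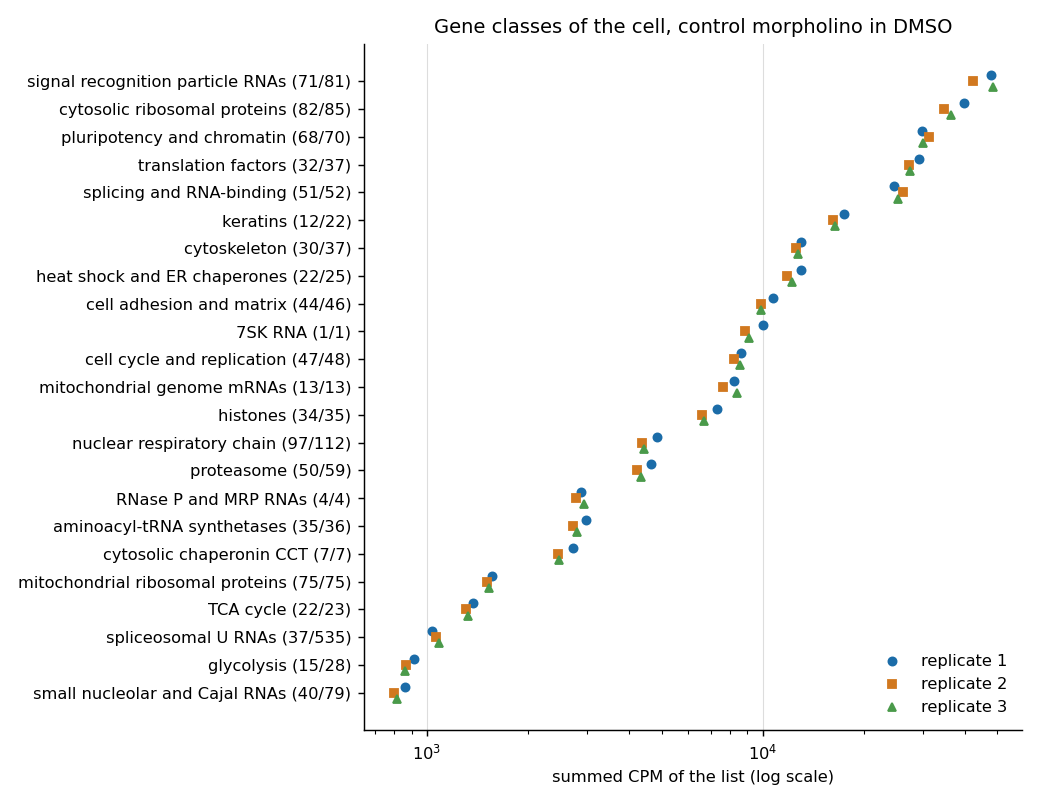
Summed CPM of selected gene classes (log scale) in each of the 3 libraries, with the number of genes at 1 CPM or more in each library over the number of genes in brackets. Signal recognition particle RNAs stood highest at 46287 ± 3285 CPM. Of the classes drawn the small nucleolar RNAs and the glycolysis genes were lowest, with means over the 3 libraries under 900 CPM.

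Marker lists for tissues of the stage were then read against the median over all genes of the table, 1.08 CPM, and against the share of all genes at 1 CPM or more, 48.1%. The outer cell layers gave the highest levels. Of the markers of the enveloping layer 29 of 31 reached 1 CPM, with a median of 72.7 CPM and a sum of 19177, 18137 and 18475 CPM. Keratins made up most of that sum at 15323 ± 588 CPM: after krt4, krt18a.1 and krt8 came krt5 at 1535 ± 33.7 and krt92 at 830.4 ± 52.9 CPM. Among junction genes the plakins ppl and evpla, which tie keratin to desmosomes, had 1372, 1389 and 1358 CPM and 529, 592 and 569 CPM. The claudin cldne, a tight junction protein of this layer, had 183, 199 and 191 CPM.

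Epidermal markers overlapped with this list in the keratins. Their transcription factors were led by tfap2c at 221, 268 and 273 CPM and tfap2a at 157, 188 and 178 CPM, AP-2 factors of non-neural ectoderm and neural crest. The basal epidermal regulator tp63 had 78.1, 89.8 and 96.9 CPM, gata3 61.5, 64.97 and 72.6 CPM and dlx3 57.3, 71.8 and 68.6 CPM. The epithelial adhesion gene cdh1, E-cadherin, had 362, 373 and 352 CPM. The genes foxi3a and foxi3b, which mark ionocyte precursors, had 5.91 ± 1.01 and 0.705 ± 0.445 CPM.

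Lipoprotein genes led the list of the yolk syncytial layer. Of its list 29 of 36 genes reached 1 CPM, and the list summed to 14686, 13997 and 14498 CPM, of which lipoprotein genes gave 8980.2 ± 304 CPM. Apolipoprotein B, apobb.1, had 3805, 3354 and 3904 CPM, apoeb 2348, 2270.0 and 2352 CPM and apoa1b 784, 752 and 780.1 CPM. The transfer protein mttp, which loads lipid onto apolipoprotein B, had 659, 787 and 694 CPM. Transferrin, tfa, later a product of the liver, had 723, 702 and 739 CPM. Several of these genes are also expressed in other cells of the embryo, and how much of each sum came from the layer was not tested. Its regulator hnf4a had 50.7 ± 5.90 CPM and mxtx1 15.8 ± 1.26 CPM, while mxtx2, active in the blastula, had 0.156, 0.0335 and 0.364 CPM.

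Axial mesoderm was marked at moderate levels. Of the notochord and axial list 25 of 28 genes reached 1 CPM with a median of 24.3 CPM. The laminin genes lama1, lamb1 (ENSDARG00000101209) and lamc1, which encode the basement membrane around the notochord and under epithelia, held most of its sum of 5238, 4827 and 4778 CPM. They had 1807 ± 100.2, 1184 ± 94.5 and 1107 ± 76.5 CPM and are not restricted to the notochord. The transcription factors were far lower: the Brachyury gene tbxta, which specifies notochord and tail, had 94.99, 102 and 105 CPM, and noto, required for notochord fate, 27.1, 24.3 and 28.4 CPM. The fork-head factors foxa3 and foxa2 had 60.3, 62.2 and 60.5 CPM and 34.1, 37.1 and 33.4 CPM. The gene named tbxt in the table had 7.25 ± 1.14 CPM.

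The prechordal plate and its later product, the hatching gland, were seen as well. Of that list 16 of 18 genes reached 1 CPM. The organizer factor gsc had 13.99, 20.7 and 19.3 CPM, and klf17, which drives hatching gland fate and is also read in the enveloping layer, 36.96, 37.1 and 37.7 CPM. Protease genes of the hatching gland were counted, the hatching enzyme gene he1.1 at 24.5, 15.5 and 17.4 CPM and ctslb at 14.1, 5.66 and 8.10 CPM. In replicate 1 he1.1 and ctslb were higher than in the other 2 libraries, while gsc was lowest there.

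Paraxial mesoderm had nearly its whole set. Of the list 37 of 38 genes reached 1 CPM, the median was 41.7 CPM, and the sum was 2299.6, 2381 and 2342 CPM. The presomitic regulator msgn1 had 205, 223 and 213 CPM. The T-box factors tbx16 and tbx6, which commit cells to paraxial mesoderm, had 149, 193 and 167 CPM and 128, 121 and 125 CPM. The adhesion gene pcdh8 (ENSDARG00000006467), known as paraxial protocadherin, had 267, 270.3 and 280.0 CPM. Of the segmentation clock, whose genes oscillate in this tissue, her1 had 33.3, 35.05 and 34.5 CPM, her7 26.3, 23.8 and 24.8 CPM and the Notch ligand dlc 141, 146 and 145 CPM. In these pools an oscillation appears only as its average. Of the genes of forming somite boundaries, ripply1 had 59.1 ± 3.29 CPM, mespab 8.16 ± 0.679, mespba 2.85 ± 0.0716 and ripply2 4.98 ± 0.994 CPM.

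The 6 genes listed as muscle regulators took more reads than the 7 contractile genes, 353 ± 11.9 CPM in sum. Most of that sum did not come from the determination genes myf5 and myod1. These had 53.7, 52.7 and 50.9 CPM and 25.2, 24.7 and 21.1 CPM, together less than the contractile genes. The myosin chaperone unc45b stood higher in reads at 219.6, 216 and 213 CPM. Of the contractile genes, the cardiac-type actin gene actc1a had 69.2, 55.3 and 48.8 CPM and the slow myosin heavy chain smyhc1 17.9, 5.998 and 5.55 CPM. Replicate 1 had the highest value for actc1a and smyhc1, and for smyhc1 it stood near 3-fold above the other 2. The whole list reached 1 CPM in 15 of 17 genes and summed to 778, 725 and 718 CPM, and contractile genes gave 90.96 ± 22.4 CPM of it.

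Lateral and intermediate mesoderm was marked in part by factors it shares with endoderm. The list had 21 of 26 genes at 1 CPM and a median of 17.6 CPM. The GATA factors gata6 and gata5, used in both heart and gut precursors, had 131, 154 and 133 CPM and 84.2, 102 and 84.3 CPM. Genes used in kidney precursors included pax2 (ENSDARG00000028148) at 42.9, 49.4 and 50.9 CPM, pax8 at 27.4, 22.7 and 27.2 CPM, osr1 at 22.2, 22.1 and 24.96 CPM and lhx1a at 20.3, 15.04 and 18.2 CPM. How much of these reads came from kidney precursors was not tested. The heart and fin factor hand2 had 21.4, 18.6 and 19.2 CPM. Blood and vessel precursor genes were low: npas4l, the switch for the shared lineage, had 7.20, 7.00 and 5.75 CPM, lmo2 5.39, 6.94 and 2.45 CPM and tal1 4.77, 1.41 and 0.793 CPM, highest in replicate 1. The erythroid factor gata1a had 0.125, 0.168 and 0.264 CPM.

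Endoderm genes were present in 15 of 16, with a median of 35.00 CPM and a sum of 768, 903 and 815 CPM. The endoderm determinant sox32 had 9.13, 16.1 and 10.2 CPM and its target sox17 14.8, 24.3 and 17.5 CPM. Both were highest in replicate 2. Chemokine receptors named cxcr4 are used by migrating endoderm and germ cells. The gene ENSDARG00000057633 of that name had 66.9, 75.5 and 72.8 CPM, and ENSDARG00000041959 had 14.5, 12.06 and 11.8 CPM. Which of these cells their reads came from was not tested. The ligand cxcl12b, made in mesoderm, had 133, 171 and 144 CPM. The later gut gene cdx1b had 0.0436 ± 0.0195 CPM.

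The neural plate was read at many levels of the head-to-tail axis. Of 69 genes 58 reached 1 CPM with a median of 15.02 CPM and a sum of 2870.3, 3141 and 3052 CPM. Pan-neural genes were led by sox19a, a SoxB1 factor that keeps neural progenitors, at 323, 329 and 329.8 CPM. The SoxB1 genes sox3 and sox2 had 81.7, 84.9 and 79.9 CPM and 64.4, 70.19 and 70.3 CPM. The 2 genes named zic2, of early neural and dorsal fates, had 197, 244 and 228 CPM (ENSDARG00000037178) and 101, 134 and 109 CPM (ENSDARG00000015554), and each of these 2 zic genes was lowest in replicate 1 and highest in replicate 2.

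Region by region, forebrain and eye genes included pax6 (ENSDARG00000045936) at 64.4, 60.2 and 66.7 CPM, otx1 at 47.2, 63.2 and 50.7 CPM and rx3, required for eye formation, at 59.9, 47.8 and 52.9 CPM. The later retinal genes rx1 and rx2 had 0.405 ± 0.299 and 0.495 ± 0.138 CPM. Midbrain-hindbrain boundary genes included fgf8 (ENSDARG00000003399), the organizing signal there, at 47.8, 51.5 and 47.8 CPM. Of the others, gbx2 had 22.9, 19.5 and 24.6 CPM, wnt1 11.1, 10.6 and 9.45 CPM and en2 (ENSDARG00000026599) 7.51, 5.43 and 6.88 CPM. The gene pax5, which follows in that cascade, had 0.654, 0.302 and 0.0992 CPM. Hindbrain genes included meis1 at 136, 119 and 130.4 CPM, hoxb1b at 68.6, 82.9 and 78.6 CPM and egr2, a marker of rhombomeres 3 and 5, at 6.98, 5.26 and 5.39 CPM. Reads of whole embryos do not tell which region they came from, and fgf8 is also listed below as an FGF ligand. The single region gene with most reads was caudal: cdx4, which directs posterior identity, had 306, 369 and 347 CPM, cdx1a 99.7, 96.9 and 137 CPM and sp5l 83.3, 125 and 106 CPM. The caudal gene evx1 was listed at 0 in each library, where 3 counts would allow at most 0.101 CPM. Whether this 0 reflects its level or the way reads were assigned to genes was not tested.

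Genes of differentiating neurons ranged widely. Of their products 6 of 14 reached 1 CPM, with a median of 0.465 CPM and a sum of 136 ± 2.01 CPM. Most of that sum came from tubb5, a tubulin, at 56.8, 50.8 and 50.4 CPM, and stmn1 (ENSDARG00000004169), a regulator of microtubules, at 38.2, 50.7 and 40.9 CPM. The proneural gene neurog1 had 15.8, 15.4 and 19.04 CPM and the early neuronal RNA-binding protein gene elavl3 12.7, 14.3 and 15.01 CPM. Products under 1 CPM included snap25 (ENSDARG00000020609) at 0.564 ± 0.0296 CPM, elavl4 at 0.172 ± 0.0425 CPM and gap43 at 0.108 ± 0.0143 CPM. Notch receptors, by contrast, were among the highest of this list and are broadly expressed.

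Neural crest and placode genes were nearly complete at 32 of 34 with a median of 23.8 CPM. The Snail factors snai1b and snai1a, which drive the loss of epithelial contacts and are also used in mesoderm, had 109.8, 122 and 114 CPM and 61.6, 78.1 and 67.1 CPM. Crest specifiers were lower: foxd3 had 25.9, 18.8 and 24.7 CPM, sox9 (ENSDARG00000043923) 26.7, 22.3 and 22.6 CPM and sox10 7.95, 3.69 and 3.47 CPM. The RNA crestin had 35.9, 29.5 and 29.98 CPM. In replicate 1 sox10 was about 2 times its level in the other 2 libraries. Since crestin is a multicopy element, its reads may come from several copies. Placode genes included six4b at 53.2, 46.8 and 51.4 CPM, eya1 at 23.9 ± 2.72 CPM and pitx3, of the lens and pituitary, at 6.92 ± 1.58 CPM.

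Germ cells are a handful of cells at this stage, and their genes were low but counted. Of the germ plasm list 15 of 17 reached 1 CPM with a median of 4.21 CPM. The helicase ddx4, known as vasa, had 11.4, 17.4 and 14.02 CPM, tdrd6 10.9, 15.6 and 16.9 CPM, nanos3 3.74, 3.75 and 3.50 CPM, piwil1 2.21, 3.35 and 1.98 CPM and dnd1 2.37, 1.84 and 2.02 CPM. The largest member in reads, celf1 at 368, 401 and 385 CPM, is also expressed in somatic cells and gave most of the sum of 505, 565 and 537 CPM. Replicate 1 had the lowest ddx4 and tdrd6.

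Most oocyte genes were low, while some genes of maternal origin were not. Of the list 23 of 30 genes reached 1 CPM with a median of 3.195 CPM. The egg coat genes zp3.2 and zp3b had 15.96, 16.5 and 16.5 CPM and 13.03, 14.1 and 12.8 CPM, and the nuclear chaperone gene npm2b 8.91, 13.9 and 13.2 CPM. The oocyte regulators zar1, buc and btg4 had 2.15 ± 0.319, 2.33 ± 0.408 and 1.29 ± 0.255 CPM, and mos, the kinase of meiotic arrest, had 0.810, 0.402 and 0.628 CPM. Among genes that zygotic transcription also supplies, some stood higher: ybx1 had 918, 959 and 991 CPM and pou5f3, an activator of the zygotic genome, 45.00, 92.1 and 59.7 CPM. Its partner nanog had 7.01, 7.74 and 9.98 CPM, below zp3.2 and zp3b. In replicate 2 pou5f3 was about 2 times its level in replicate 1.

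Genes of the blastula and early gastrula were read in 28 of 31, with a median of 26.9 CPM and a sum of 1485, 1726 and 1626 CPM. The ventral repressors vox, vent and ved, which oppose dorsal fates, had 131, 143 and 143 CPM, 114, 153 and 134 CPM and 44.4, 67.04 and 62.5 CPM. Several genes that act early were low: the Nodal ligand ndr1 had 0.935, 0.938 and 0.826 CPM and the mesendoderm factor mixl1 4.14, 4.22 and 4.99 CPM. The dorsal determinant dharma was listed at 0 in each library, and whether this reflects its level or the assignment of reads was not tested.

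Genes listed for tissues that form later were mostly under 1 CPM. The list was chosen with earlier results of these data known, so it is not a check of the stage. Of 63 late genes 13 reached 1 CPM, and over the list the median was 0.133 CPM. Of the gut, liver and pancreas genes 5 of 10 reached 1 CPM, of the neural genes 5 of 13 and of the muscle genes 3 of 10. None of 14 eye genes, 8 blood and immune genes or 8 pituitary genes reached 1 CPM in each library, and the 8 pituitary genes together gave 0.476 ± 0.231 CPM. Of the sum of 963 ± 34.8 CPM, tfa and the fatty acid binding protein gene fabp2, at 723, 702 and 739 CPM and 164, 160.1 and 180.0 CPM, gave nearly all. Behind them came acta1 (ENSDARG00000036371), a skeletal actin, at 30.7, 14.2 and 18.02 CPM, the liver gene ambp at 9.69, 7.74 and 12.4 CPM, and tnnt3 (ENSDARG00000068457), a troponin, at 6.17, 10.8 and 12.2 CPM. Of 9 globin genes none reached 1 CPM and all 9 summed to 1.84 ± 0.440 CPM.

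**Figure D3:**
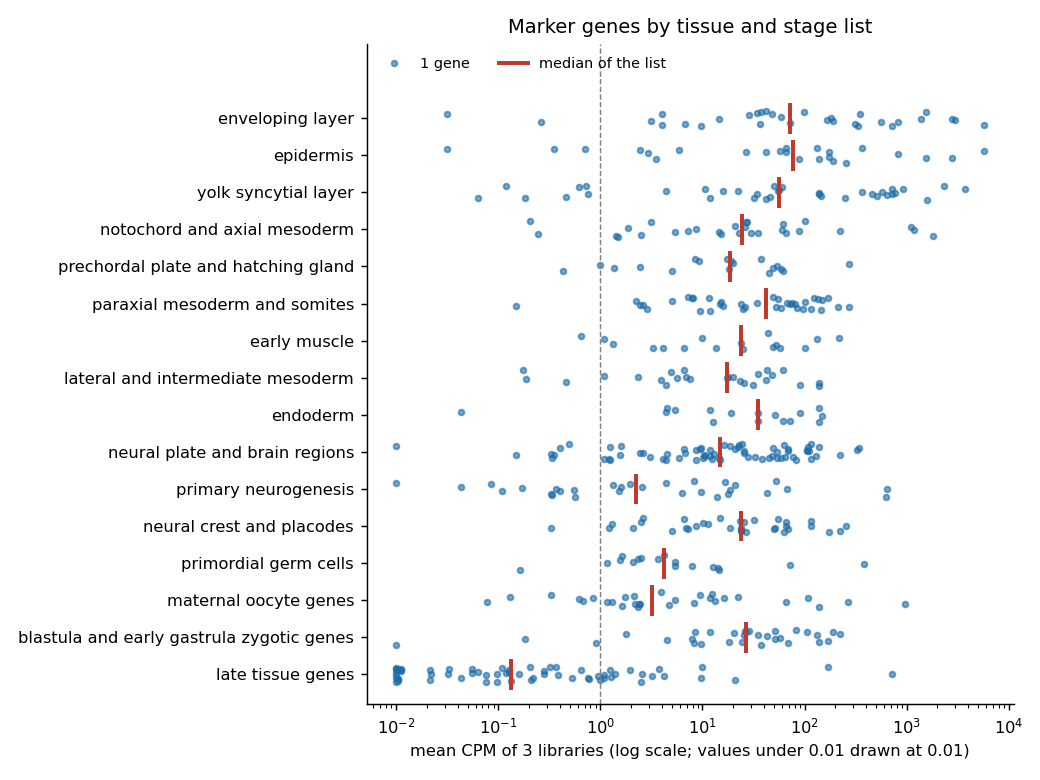
Mean CPM of each marker gene over the 3 libraries (log scale, 1 point a gene, red bar the median of the list, dashed line at 1 CPM), by list. The lists of the enveloping layer, epidermis and yolk syncytial layer had medians above 50 CPM, and the list of late tissue genes one of 0.133 CPM.

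In the Nodal, BMP, FGF, Wnt, Hedgehog and Notch lists the receptors took more counts than the ligands. In the apelin and chemokine list ligands summed to 266 ± 33.1 CPM and receptors to 246 ± 12.5 CPM. These are sums of reads over the whole embryo and over genes of different number and length. For the Nodal pathway, which induces mesendoderm, ligands summed to 19.2 ± 0.196 CPM and receptors to 567 ± 18.5 CPM. The receptor sum was led by the activin receptor genes acvr2b (ENSDARG00000103108) at 193 ± 5.10 CPM and acvr1b (ENSDARG00000018968) at 121 ± 6.79 CPM. How much of it serves Nodal signals was not tested. The co-receptor tdgf1 had 22.3, 37.6 and 24.96 CPM, the Nodal transducer foxh1 32.7, 49.3 and 36.2 CPM, and the feedback inhibitors lft1 and lft2 25.99, 23.3 and 25.5 CPM and 8.66, 12.2 and 11.7 CPM. The ligand ndr2 had 8.45, 8.51 and 8.43 CPM, and spaw, the left-right ligand that acts later, 0.561, 0.168 and 0.364 CPM.

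BMP signals, which set ventral fates, showed higher sums for inhibitors than for ligands. Ligands summed to 178 ± 11.6 CPM, with bmp7a at 62.2 ± 6.82, bmp2 (ENSDARG00000041430) at 40.01 ± 3.91 and bmp4 at 31.02 ± 2.82 CPM. Inhibitors summed to 819 ± 23.6 CPM, led by chordin, chrd, at 215, 220.1 and 232 CPM and follistatin, fst (ENSDARG00000052846), at 204, 207 and 197 CPM. The dorsal ligand admp had 12.13 ± 1.09 CPM, and tll1, a protease that cleaves chordin, 155, 159 and 164 CPM. The transducer smad5 had 78.00, 81.8 and 77.9 CPM, and the target id3 96.6, 98.6 and 98.7 CPM. All 10 listed targets reached 1 CPM.

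FGF signals, which maintain posterior mesoderm, were marked by their feedback genes. The receptor fgfr4 had 815, 899 and 876 CPM, more reads than any other gene of the list. The feedback phosphatase dusp6 had 299.8, 298 and 321 CPM, spry4 129, 128 and 135 CPM and the target factors etv5b and etv5a 205, 208 and 220.1 CPM and 112, 105 and 119.9 CPM. Of 9 ligand genes 6 reached 1 CPM, led by fgf8, while fgf3 had 23.7 ± 1.88 and fgf24 7.65 ± 1.58 CPM, and fgf19 had 0.0208 ± 0.0360 CPM.

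The Wnt list, with 64 genes, was the largest of the pathways in reads at 7476, 8053 and 7708 CPM, and beta-catenin, ctnnb1, gave 2003, 2022 and 1975 CPM of it. The frizzled receptor fzd7 (ENSDARG00000060004) had 537, 569 and 533 CPM. The planar polarity genes, which steer convergence and extension, summed to 2105 ± 119 CPM, with scrib at 406, 430.1 and 418 CPM and vangl2 at 366, 448 and 400.4 CPM. Ligands summed to 229 ± 10.02 CPM, and wnt5b, a ligand of the polarity branch, gave 106, 99.9 and 113 CPM, wnt11f2 47.3 ± 3.42 and wnt3a 10.8 ± 1.25 CPM. Both genes named wnt8a were listed at 0 in each library, so the ligand sum holds no reads of them. Whether this 0 reflects their level or the way reads were assigned to genes was not tested. The feedback gene axin2 had 131, 140.1 and 140.5 CPM and the inhibitor dkk1b 17.5, 18.96 and 16.2 CPM.

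Retinoic acid, Hedgehog and Notch genes were also widely present. For retinoic acid, a posterior signal, the synthesis enzyme aldh1a2 had 109, 117 and 119.6 CPM and the degrading enzyme cyp26a1 116, 156 and 135 CPM. The binding protein crabp2 (ENSDARG00000030449) had 182, 270.1 and 223 CPM, lowest in replicate 1, and the receptor rarab 169, 173 and 178 CPM. In the Hedgehog pathway ligands summed to 43.2 ± 4.92 CPM, with the 2 genes named shh at 18.7, 20.97 and 23.2 CPM (ENSDARG00000038867) and 13.4, 13.6 and 18.6 CPM (ENSDARG00000068567). The signal transducer smo had 316, 319 and 328 CPM, and the target gli1 89.6, 88.9 and 88.3 CPM. All 18 Hedgehog genes reached 1 CPM. Of the Notch genes 27 of 28 did so, with receptors notch3 at 673, 614 and 639 CPM and notch1 (ENSDARG00000103554) at 620.2, 634 and 631 CPM.

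Hox genes, which give positional identity along the trunk, were read mainly from paralogue groups 1 to 10. Of 48 hox genes 34 reached 1 CPM in each library, and the sum was 746, 726 and 811 CPM. Groups 1 to 10 held 33 of those 34: they summed to 737, 719 and 802 CPM over 34 genes. Groups 11 to 13 summed to 8.63, 6.94 and 9.19 CPM over 14 genes, and 1 of them, hoxa11 (ENSDARG00000007009), reached 1 CPM in each library at 3.27, 2.38 and 3.07 CPM.

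Within groups 1 to 10 the levels showed no steady order by group number. The highest were hoxc3a at 88.97, 92.04 and 103 CPM, hoxb1b at 68.6, 82.9 and 78.6 CPM and hoxb9 at 67.7, 70.8 and 68.8 CPM. The group 3 genes summed to 159, 164 and 177 CPM, the group 9 genes to 154, 143 and 157 CPM, and the group 2 genes, of which there are 2, to 7.70, 5.60 and 8.10 CPM. By cluster, hoxb genes summed to 363, 366 and 389 CPM, hoxc genes to 235, 240.4 and 272 CPM, hoxa genes to 93.03, 76.2 and 95.5 CPM and hoxd genes to 54.7, 43.4 and 54.6 CPM. The number of genes differs between groups and clusters, and transcript length was not corrected for.

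**Figure D4:**
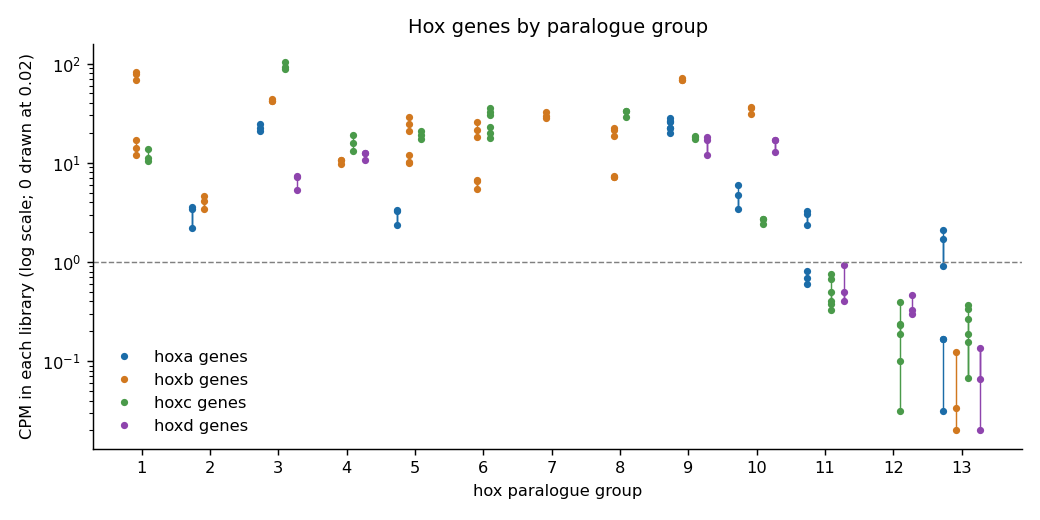
CPM of hox genes in each of the 3 libraries (log scale, 3 points joined by a line per gene, a 0 drawn at 0.02, dashed line at 1 CPM) by paralogue group, coloured by cluster. Genes of groups 3 to 10 lie above 1 CPM, and those of groups 11 to 13 reach at most 3.27 CPM in a library.

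Families of transcription factors were counted in part. Of 63 fox genes 34 reached 1 CPM (54.0%), of 28 sox genes 21 (75%), of 24 T-box genes 13 (54.2%), and of 14 pax genes 7 (50%). Over all genes of the table the share was 48.1%, so the fox, T-box and pax shares were near it. Among single factors not yet described, xbp1, of the secretory pathway, had 265, 278 and 278 CPM, and sox11 (ENSDARG00000077811), of neural progenitors, 233, 264 and 261 CPM. All 7 zic genes reached 1 CPM and summed to 430.3, 546 and 490.4 CPM, lowest in replicate 1.

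Of the 31 genes listed for the wider study 29 reached 1 CPM in each of these control libraries, and none lacked counts in all of them. Among those listed for coenzyme Q 9 of 11 reached 1 CPM. The knockdown target, trim33 (tif1g), had 67.5, 76.7 and 68.1 CPM, and its relatives trim24 and trim33l had 31.5, 31.3 and 29.1 CPM and 19.9, 20.8 and 16.8 CPM. The gene of the leflunomide target, dhodh, an enzyme of pyrimidine synthesis in mitochondria, had 22.7, 20.1 and 23.4 CPM. The enzyme of the first steps of that pathway, cad, had 1353, 1170.0 and 1332 CPM, and the enzyme of the final steps, umps, 141, 123 and 135 CPM. The elongation factor genes supt6h and supt5h had 341, 368 and 344 CPM and 140.3, 141 and 138 CPM, and ctr9, a subunit of the Paf1 complex, 191, 178 and 188 CPM.

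The 3 libraries were close but not interchangeable. Over genes with a mean of 1 CPM or more, the Pearson correlation of log2(CPM + 1) between pairs of libraries was 0.992 to 0.993, across genes, which are not independent replicates. For each pair of libraries a chi-square over the genes that had 20 or more counts gave 9.47 to 15.0 per degree of freedom, so no pair matched as closely as 1 library deposited under 2 names would, and each was counted as a sample. Among 11820 genes with a mean of at least 5 CPM, the median SD was 7.13% of the mean. The median was 19.5% for genes of 1 to 5 CPM, where counting alone gives 11.97%, and 4.93% for genes of 1000 CPM and more, where counting gives 0.453%. The common biological coefficient of variation by edgeR was 0.117. Of the 11820 genes 365, or 3.09%, had an SD of at least 25% of the mean, and 92 had a range of at least 2-fold.

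The most variable genes were of several kinds. The 2 unnamed genes ENSDARG00000117717 and ENSDARG00000117659 had 352, 46.8 and 664 CPM and 226, 21.5 and 435 CPM, low in replicate 2 and high in replicate 3. Relative to counting error, the SD was also large for rn7sl1, malat1, rn7sk, 3 copies of the signal recognition particle RNA and 2 genes with clone names. That measure rises with level: its median was 1.63 for genes of 1 to 5 CPM and 10.98 for genes of 1000 CPM and more. As a percent of the mean, the SD of rn7sk was 6.41%, below the median of 7.13% over the 11820 genes. The others named here were above that median, from 10.4% for rn7sl1 and 12.2% for malat1 to 37.5% for 1 copy of the signal recognition particle RNA. Relative to the mean, the list took smyhc1, described above, and etsrp, an endothelial regulator, at 9.51, 3.92 and 3.44 CPM, both highest in replicate 1. It also took qdpr (ENSDARG00000040190), an enzyme of pterin recycling, at 16.3, 5.36 and 6.51 CPM, and btr18, a TRIM gene, at 6.08, 4.79 and 13.6 CPM. The other 4 were 2 unnamed genes, a clone name and a copy of the signal recognition particle RNA.

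Whole gene lists leaned to one library. Over all genes of 5 CPM or more, 30.1% were highest in replicate 1, 37.5% in replicate 2 and 32.4% in replicate 3. Of the ribosomal protein genes 74 of 82 were highest in replicate 1 and 77 of 82 lowest in replicate 2, where 31.8% of all genes were lowest. Histones (25 of 33), the proteasome (38 of 50) and collagens (14 of 18) were also mostly highest in replicate 1. The opposite side was taken by genes of the blastula and early gastrula, 19 of 26 highest in replicate 2, endoderm genes, 10 of 13, Wnt genes, 29 of 52, and splicing genes, 32 of 51. Hox genes were highest in replicate 3 in 17 of 28.

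These counts depend in part on how libraries are scaled. With TMM factors, chosen after the data were seen, 41.4% of all genes were highest in replicate 1, 33.5% in replicate 2 and 25.1% in replicate 3. The ribosomal protein genes were then highest in replicate 1 in 76 of 82, the blastula and early gastrula genes highest in replicate 2 in 19 of 26, and hox genes highest in replicate 3 in 14 of 28. Histones had 27 of 33, proteasome genes 40 of 50 and collagens 14 of 18 highest in replicate 1, while 11 of 13 endoderm genes, 29 of 52 Wnt genes and 30 of 51 splicing genes were highest in replicate 2. The cause of these differences between libraries was not tested.

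**Figure D5:**
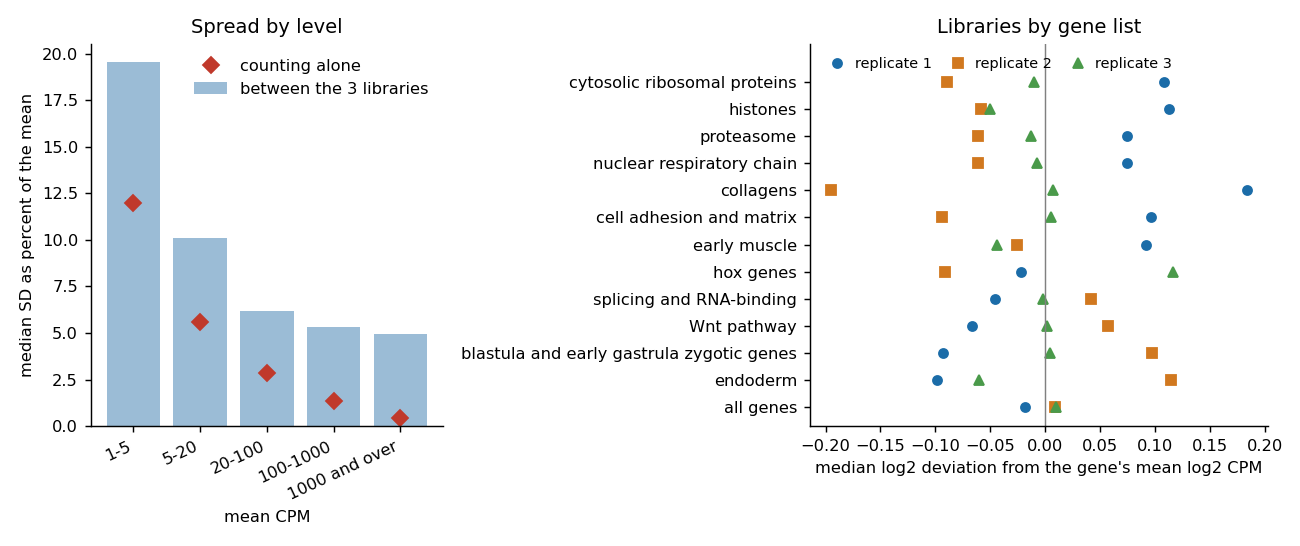
Left, the median SD between the 3 libraries as a percent of the mean (bars) and the same from counting alone (diamonds), by mean CPM. Right, the median log2 deviation of each library from the gene's mean over the 3 libraries, by gene list, for genes of at least 5 CPM: ribosomal protein genes were highest in replicate 1, endoderm genes in replicate 2 and hox genes in replicate 3.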

How the data were processed

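Total RNA of whole embryos was depleted of rRNA and sequenced as directional libraries, per the labels. The authors deposited raw read counts per Ensembl gene. The submitters' processing notes name FastQC, cutadapt, TopHat2 2.0.11, Cufflinks 2.2.1 and HTSeq, with genome build GRCz11. The 3 control DMSO columns were taken by their labels, and counts were divided by the library total (CPM). Depth was 29845686 to 32088082 counts a library. The limit of 3 counts covers counting error only. No test between groups was made, since 1 group is described; a chi-square of counts checked for libraries deposited more than once. A gene was counted as present at 1 CPM in each library. Named genes were the 25 highest with a name other than a clone name, members of the gene lists, and the 10 most variable genes by each measure. Members and lists were chosen with earlier results of these data known, and some list patterns were trimmed, and a set of structural RNA lists added, after the names were seen. A list symbol ending in a letter was matched to the name without it where only that name existed (234 symbols), and 57 symbols had no match. Names came for 29201 genes. The spread was computed with edgeR 4.0.16 and Python 3.11.15, tested on simulated data. Alternatives were other scalings (TMM, DESeq2 1.42.0), other minimums and leaving out a library. Values of some genes are not reported here.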

Additional observations from a re-analysis of the deposited data

How the results depend on the processing

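The number of genes at 1 CPM or more in each library was 15656, and it was 15658 with TMM factors and with DESeq2 size factors. It was 15717 with the 13 mRNAs of the mitochondrial genome left out of the totals, 17360 at 0.5 CPM and 11346 at 5 CPM. With no minimum but 1 count in each library it was 24308, more than 1.5 times as many. Leaving out each library in turn gave 15843 to 16001 genes and a share of 20.9% to 21.2% of the counts in the 100 highest genes. The 13 mRNAs of the mitochondrial genome then held 0.793% to 0.832% of the counts. Without these 13 mRNAs the 100 highest genes held 21.0%. Of 72 list sums and 1207 genes, none moved by more than 1 SD under TMM or DESeq2 scaling. With the 13 mRNAs left out of the totals 1 sum and 16 genes did, by at most 0.848%. Leaving out a library moved sums of 10 CPM or more by at most 7.10% and genes of 10 CPM or more by at most 45.6%. Ranks per coding length and the a and b gene pairs were not run, since no lengths were used here. No paired analysis was possible because no groups were compared. Genes under about 0.1 CPM are at the limit that 3 counts allow.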

Other observations

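Genes of apoptosis were mostly counted in these injected controls. Of the Bcl-2 family genes 10 of 11 reached 1 CPM with a sum of 329 ± 11.6 CPM, and of the genes that carry out apoptosis, such as caspases, 7 of 7 did so with a sum of 168 ± 13.7 CPM. The pro-apoptotic genes bbc3 and pmaip1 had 15.25 ± 1.16 and 9.21 ± 0.962 CPM. The apelin pathway, which guides mesendoderm movement, had its early ligand apela at 39.9, 58.4 and 56.7 CPM and its receptors aplnra and aplnrb at 41.3, 46.1 and 41.1 CPM and 37.7, 37.4 and 30.6 CPM, while the later ligand apln had 3.83 ± 0.477 CPM.

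In several gene families 1 or 2 genes stood far above the rest. Among 158 olfactory and taste receptor genes 6 reached 1 CPM, and olfcr1 had 768, 777 and 773 CPM, with olfcb1 next at 11.4 ± 1.76 CPM. Among 142 TRIM and finTRIM genes 57 (40.1%) reached 1 CPM, against 48.1% of all genes. The RNA-binding trim71 had 770.0, 857 and 821 CPM, with ftr83 next at 81.9 ± 6.14 CPM. Of the opsin genes 3 of 35 reached 1 CPM, and opn8c had 24.7 ± 1.65 CPM, with opn6a next at 5.45 ± 1.97 CPM. Among 60 genes taken by a crystallin name 3 reached 1 CPM, led by crybg1b and crybg1a, at 63.04 ± 5.89 and 48.1 ± 3.65 CPM. Which genes of this list encode lens proteins was not tested.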
